A study of Mus musculus with 3 samples.

Results

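The genes described here handle iron inside the cell, and number 9 of the 21938 protein-coding genes of GENCODE mouse release 21. They were taken by name: the transferrin receptors Tfrc and Tfr2, the endosomal reductase Steap3 and transporter Slc11a2, the ferritin subunits Fth1 and Ftl1, the iron sensors Aco1 and Ireb2, and the exporter Slc40a1. For each gene, DNase I sites within 50 kb of the gene body were collected, and sites within 1 kb of any annotated start of the gene (promoter sites) were kept apart from distal sites. In DNase-seq, the nuclease DNase I cuts DNA that is free of tightly packed nucleosomes, and sites rich in cuts include active promoters and enhancers. The cells were MEL, an immortalised mouse erythroleukaemia line of red cell precursors, and every library came from cells kept for 24 hours in zinc dichloride. The labels give the dose as 125 in a unit whose prefix cannot be read. The 3 libraries form 1 group, with 2 technical repeats in biological replicate 1 and 1 library in biological replicate 2. Untreated cells were not analysed here, so nothing below is an effect of zinc.

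Red cell precursors take up iron mainly as transferrin, which the transferrin receptor carries into endosomes, where the metal is reduced by Steap3 and moved to the cytosol by Slc11a2 (DMT1). Iron not used for haem is stored in ferritin shells of heavy (Fth1) and light (Ftl1) subunits or leaves through ferroportin (Slc40a1). The iron regulatory proteins, made by Aco1 and Ireb2, sense the metal and bind hairpins called iron response elements: in 5′ untranslated regions this blocks translation, and in 3′ untranslated regions of Tfrc it protects the transcript.

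Each biological replicate has 1 list of peaks and 1 list of hotspots. Peaks are 150 bp wide and carry a score set by the authors, which ranks peaks only within its own list. Hotspots are broader enriched regions and carry the −log10 of a q value with a ceiling of 100. The list of replicate 1 held 304049 peaks and that of replicate 2 held 106591, and neither list gives read counts. The cell type was checked against marker genes: a promoter peak lay at 10 of 11 erythroid markers in replicate 1 and at 6 of 11 in replicate 2, beside 63.6% and 49.0% of all protein-coding genes. The count in replicate 2 lies close to that background. Gata1 scored 143 and 57, and the globin gene Hba-a1 had none in either list. Promoter peaks also lay at 2 of 5 liver markers, 1 of 3 T cell markers, 1 of 2 B cell markers and 3 of 3 macrophage and monocyte markers in replicate 1, and at 1 of each of these sets in replicate 2. Hnf4a, Cd4, Cd8a and Cd79a had none. What part other cells had in the results was not tested.

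All 9 iron genes had a promoter peak and a promoter hotspot in both replicates. The background was 63.6% of protein-coding genes with a peak at the promoter in replicate 1, 49.0% in replicate 2, and 48.9% in both lists. Promoter hotspots lay at 64.3% of protein-coding genes in replicate 1 and at 49.3% in replicate 2. The highest promoter score per gene had a median of 141 over the members in replicate 1, against 135 over all genes with a promoter peak, and of 47 against 47 in replicate 2. All 9 promoters were thus called open in both lists, and the median of their scores lay near that of all promoters with a peak. The plot of promoter scores gives the 9 values in each list.

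**Figure D1:**
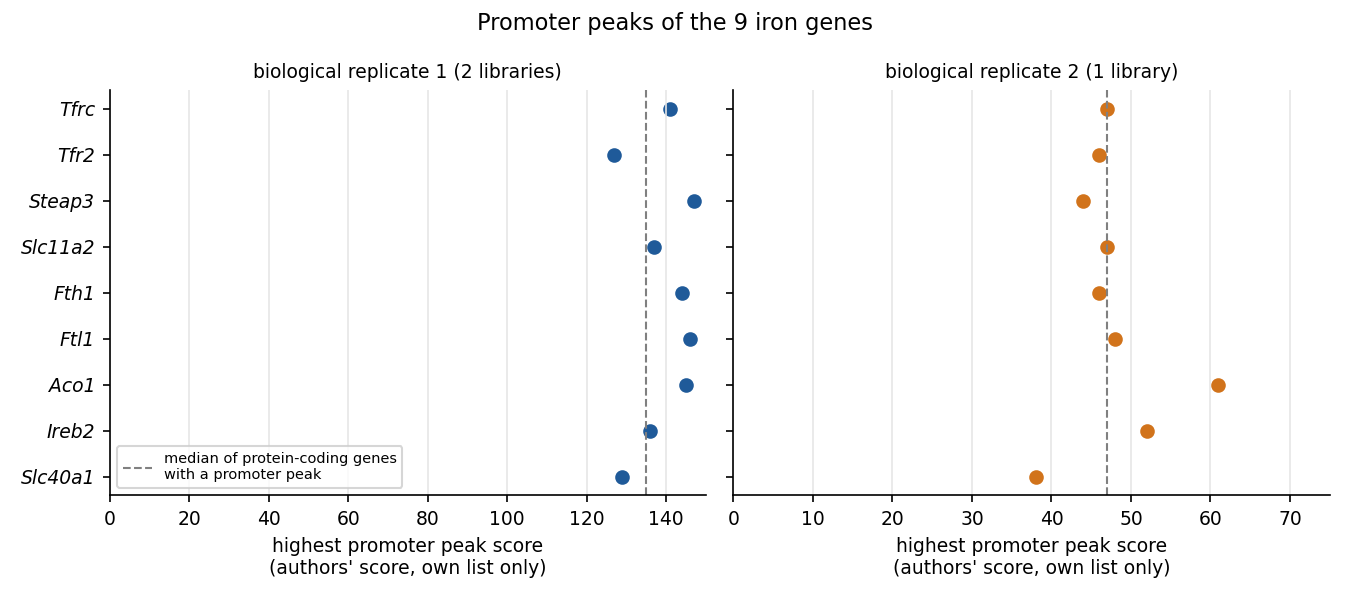
Highest score among the promoter peaks of each gene (x axis, the authors' score, which is comparable only within a list) in biological replicate 1 (left) and 2 (right), with the median over protein-coding genes that have a promoter peak as a dashed line. In replicate 1 the genes lie between 127 (Tfr2) and 147 (Steap3), and in replicate 2 between 38 (Slc40a1) and 61 (Aco1).

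The first group brings iron to the cell surface. Tfrc, the main transferrin receptor (chr16:32608920-32632794, + strand, mm10), had 7 promoter peaks in each list. Its highest was 141 in replicate 1, at the start itself, and 47 in replicate 2, at a peak centred 0.549 kb upstream of the start. Promoter hotspots reached the ceiling of 100 in both lists and were up to 2553 bp wide in replicate 1 and 1748 bp in replicate 2. Both lists thus showed an open stretch that ran from upstream of the start into the first intron. Only the most upstream of the 5 start clusters (annotated starts no more than 500 bp apart) had a peak in both lists. A short noncoding transcript that starts 6312 bp further downstream had peaks of 91 and 62 nearby in replicate 1 and none in replicate 2. The stretch of the highest Tfrc promoter peak that lies before the untranslated region is shown because it holds 2 overlapping metal response elements (TGCACNC or TGCGCNC, bound by the zinc sensor Mtf1) and the core of a hypoxia response element (ACGTG), all in capitals.
Tfrc promoter peak, score 141, chr16:32608836-32608919 (+ strand): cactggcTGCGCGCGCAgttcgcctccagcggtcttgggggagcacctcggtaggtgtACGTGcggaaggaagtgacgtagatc
Metal response elements were in 7 of 42 member promoter peaks of replicate 1 (16.7%, against 15.1% of all promoter peaks) and in 8 of 34 of replicate 2 (23.5% against 14.4%). Among distal member peaks they were in 24 of 258 of replicate 1 (9.3%, against 7.82% of all distal peaks). In replicate 2 they were in only 2 of 79 distal member peaks (2.53%, against 7.68%). Cores of hypoxia response elements were in 21.4% of the member promoter peaks of replicate 1, against 12.3% of all promoter peaks, and in 20.6% against 13.3% in replicate 2. Letters that match a motif describe the sequence and do not show that a factor was bound. Peaks of the same gene overlap one another, so they are not independent.

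Tfrc also had many distal peaks, 29 in replicate 1 and 17 in replicate 2, which is 23.4 and 13.7 per 100 kb of window. The medians over protein-coding genes were 15.6 and 3.78 per 100 kb. As many distal peaks as at Tfrc were found at 26.6% of protein-coding genes in replicate 1 and at 6.96% in replicate 2. The highest distal peak in replicate 1 scored 140, 13.5 kb upstream, and a peak of replicate 2 with a score of 42 overlapped it. Peaks 42.3 and 57.5 kb downstream of the start, inside the neighbouring kinase gene Tnk2, scored 137 each in replicate 1 and overlapped peaks of 40 and 43 in replicate 2. In replicate 2 the highest distal score was 45, at a peak 42.1 kb downstream that lay in a hotspot but in no peak of replicate 1. The next in that list scored 44, 1.29 kb upstream, and 43, 45.5 kb upstream.

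Tfr2, the second transferrin receptor, which in red cell precursors is known as a partner of the erythropoietin receptor, lies at chr5:137569840-137587481 (+ strand). It had 5 promoter peaks in each list, with a highest score of 127 in replicate 1 and 46 in replicate 2. These lie at the 36.3rd and 49.6th percentiles among genes with a promoter peak. The first 3 of its 6 start clusters had peaks in both lists, and the 3 downstream clusters had none. Some of these peaks lay within 1 kb of more than 1 of the 3 clusters and were counted for each. The promoter stretch before the untranslated region is shown because it holds 3 matches to the CACCC motif of Klf factors (CCNCNCCC, capitals, each on the opposite strand) and 1 hypoxia response core.
Tfr2 promoter peak, score 127, chr5:137569736-137569839 (+ strand): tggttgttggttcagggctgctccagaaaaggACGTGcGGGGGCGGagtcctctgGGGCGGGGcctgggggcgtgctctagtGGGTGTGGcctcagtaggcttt
The CACCC motif was in 15 of 42 member promoter peaks of replicate 1 (35.7%) and 10 of 34 of replicate 2 (29.4%), against 31.8% and 25.8% of all promoter peaks.

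Around Tfr2 the lists differed more than around Tfrc. Replicate 1 had 30 distal peaks and replicate 2 had 2. The Tfr2 window is crowded with other promoters: 26 further peaks of replicate 1 and 17 of replicate 2 lay at starts of neighbouring genes, among them Epo, Gnb2, Mospd3, Fbxo24 and Lrch4. Just 1 distal peak of replicate 1 overlapped a peak of replicate 2. It scored 134 and 47, lay 34.3 kb upstream in intergenic sequence, and holds 1 GATA site, the site of the erythroid master regulator Gata1 (AGATA or TGATA and then A or G, on either strand).
Tfr2 distal peak in both lists, score 134, chr5:137535436-137535585 (+ strand): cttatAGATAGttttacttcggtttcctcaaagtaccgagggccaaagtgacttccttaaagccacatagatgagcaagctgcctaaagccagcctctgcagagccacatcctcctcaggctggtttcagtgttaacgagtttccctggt
The other distal peak of replicate 2 scored 53 and lay 61.7 kb downstream, next to the highest distal peak of replicate 1, which scored 148. Both are in one broad hotspot that is 4593 bp wide in replicate 1 and 4271 bp in replicate 2. That hotspot also spans peaks at starts of the neighbouring genes, from Fbxo24 into Gm20605, and the 2 distal peaks lie in Gm20605. The third distal peak of replicate 1 scored 111, was 28.4 kb downstream in Mospd3, and had no counterpart in replicate 2.

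The second group works in the endosome. Steap3, the reductase that turns ferric into ferrous iron there, lies at chr1:120190757-120272705 (− strand). Its promoter peaks scored 147 and 99 in replicate 1 and 44, 39 and 37 in replicate 2. The score of 147 was at the 93rd percentile of genes with a promoter peak in replicate 1, and 44 was at the 42.4th in replicate 2. All of these peaks lay at the most downstream of the 4 start clusters, 5139 bp downstream of the first-numbered start. The first-numbered transcript and the other 2 upstream clusters had no peak within 1 kb in either list. The opened start was therefore 1 of 4 annotated ones, and the same in both lists. Its hotspot reached the ceiling in replicate 1 and had a −log10 q of only 2.12 in replicate 2.

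Steap3 had 38 distal peaks in replicate 1 and 6 in replicate 2, of which 4 and 5 overlapped the other list. The highest scored 127, 23.6 kb upstream, and overlapped a peak of 43 in replicate 2. In the intron after the opened start, a pair of peaks in replicate 1 scored 120 and 103, 11.5 and 11 kb from the first-numbered start, and overlapped peaks of 29 and 32 in replicate 2. The weaker of the pair is shown because it holds 3 GATA sites in 150 bp. The first of them forms an E-box with GATA (CTG and AGATAA or AGATAG, 7 to 9 bases apart), a composite known to be bound by the Tal1 and Gata1 complex. Only the last of the 3 sites lies in the overlapping peak of replicate 2, so this composite is in a peak of replicate 1 alone.
Steap3 intronic peak in both lists, score 103, chr1:120259316-120259465 (- strand): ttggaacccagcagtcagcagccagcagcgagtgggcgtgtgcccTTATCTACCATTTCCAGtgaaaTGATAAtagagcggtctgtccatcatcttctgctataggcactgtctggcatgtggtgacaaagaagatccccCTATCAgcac
The composite was in 4 of 258 distal member peaks of replicate 1 (1.55%, against 1.64% of all distal peaks) and in 1 of 79 of replicate 2 (1.27% against 1.5%). A further site in both lists scored 92 and 32, 73.1 kb downstream of the first-numbered start and within the gene. Its neighbour in replicate 2, with a score of 33, holds an antioxidant response element (TGACNNNGC), a PU.1 site (GAGGAAGT) and a RUNX site (TGTGGTT). The third peak of replicate 1 by score, 116, lay 99.9 kb downstream in 3110009E18Rik and had no counterpart.

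Slc11a2, the transporter that moves ferrous iron out of the endosome, lies at chr15:100387898-100425072 (− strand). Its 3 promoter peaks scored 137, 79 and 37 in replicate 1 and 47, 41 and 38 in replicate 2. The 2 middle start clusters of 4 had peaks in both lists, while the most upstream cluster and the one deep in the gene had none. The 2 middle clusters lie close together, and all promoter peaks lay within 1 kb of the one with the main start. In replicate 1 the peak of 137 was the only one that also lay within 1 kb of the other. The peak of 137 over the main start had no overlapping peak in replicate 2, where the nearest, with a score of 47, was centred 0.216 kb upstream. Both lay in hotspots at the ceiling that shared an edge base, so the open region was shared although the peaks were placed apart. A hotspot of 2621 bp in replicate 2, the widest promoter hotspot among the members, lay in the first intron.

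Slc11a2 had the most distal peaks of the 9 genes in both lists, 41 and 20. As many were found at 9.41% of protein-coding genes in replicate 1 and 4.18% in replicate 2. The upstream side held the highest: 144, 20.7 kb upstream, with an overlapping peak of 40 in replicate 2; 128, 26.1 kb upstream, with 35; and 128, 34.5 kb upstream, with 56. In replicate 2 the highest was 63, 34.7 kb upstream, beside the peak of 56, followed by 52, 38.1 kb upstream. The same upstream stretch thus held the top peaks of both lists. The highest of replicate 1 holds a CACCC motif, an antioxidant response element and a TATA box (TATAAA), in that order.
Slc11a2 distal peak in both lists, score 144, chr15:100443636-100443785 (- strand): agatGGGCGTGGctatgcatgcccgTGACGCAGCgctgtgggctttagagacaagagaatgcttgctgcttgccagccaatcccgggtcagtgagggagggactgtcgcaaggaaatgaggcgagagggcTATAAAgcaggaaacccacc
A neighbouring site (94 in replicate 1 and 41 in replicate 2) has 1 GATA site and 1 AP-1 site (TGAGTCA or TGACTCA) in replicate 1.
Slc11a2 distal peak in both lists, score 94, chr15:100443276-100443425 (- strand): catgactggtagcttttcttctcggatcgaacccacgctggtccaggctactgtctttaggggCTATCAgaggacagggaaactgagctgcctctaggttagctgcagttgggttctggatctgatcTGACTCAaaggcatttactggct
AP-1 sites were in 17 of 258 distal member peaks of replicate 1 (6.59%, against 4.85% of all distal peaks) and in 6 of 79 of replicate 2 (7.59% against 3.81%). Antioxidant response elements were in 7.36% against 5.99% in replicate 1, and in 7.59% against 5.54% in replicate 2. Promoter peaks went the other way. At member promoter peaks of replicate 1, antioxidant response elements were in 1 of 42 (2.38%, against 7.02% of all promoter peaks). In replicate 2 they were in 0 of 34 (against 6.26%). AP-1 sites were in 0 of 42 (against 3.06%) and 0 of 34 (against 2.11%).

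The storage genes Fth1 and Ftl1 encode the ferritin subunits, and both transcripts carry an iron response element near their 5′ end. The elements were found in the reference as an unpaired C, a stem of 5 positions with at least 4 paired, and a loop of CAGTG and 1 more base. They are shown for the 3 genes with one in the 5′ untranslated region, with the loop in capitals. Beside them are those that this search found in the 3′ untranslated regions of Tfrc and Slc11a2. An element of another form would have been missed.
Fth1 5′ element, chr19:9982732-9982761 (+ strand): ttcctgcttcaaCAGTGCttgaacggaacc
Ftl1 5′ element, chr7:45459778-45459807 (- strand): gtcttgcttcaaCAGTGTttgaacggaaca
Slc40a1 5′ element, chr1:45925464-45925493 (- strand): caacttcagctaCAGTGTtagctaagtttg
Tfrc 3′ element, chr16:32631219-32631248 (+ strand): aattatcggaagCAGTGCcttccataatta
Tfrc 3′ element, chr16:32631598-32631627 (+ strand): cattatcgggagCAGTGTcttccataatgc
Tfrc 3′ element, chr16:32631663-32631692 (+ strand): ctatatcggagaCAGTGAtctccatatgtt
Tfrc 3′ element, chr16:32631710-32631739 (+ strand): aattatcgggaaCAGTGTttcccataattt
Slc11a2 3′ element, chr15:100395152-100395181 (- strand): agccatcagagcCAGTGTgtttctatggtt
The loop is the same in its first 5 bases by the search rule, and 7 of the 8 stems had all 5 pairs. The stem of Slc11a2 had 4 of 5. The Fth1 and Ftl1 elements share the stem letters on both sides of the loop, while the Slc40a1 stem differs from them. No element lay under a peak in either list. The element of Slc40a1 lay whole in a hotspot of both replicates, and that of Fth1 in one of replicate 1 and in none of replicate 2. Of the Ftl1 element, only 3 of 30 bases lay in a hotspot of either replicate, so it sat at the edge of the upstream hotspot. Fth1 and Ftl1 are known to have many processed copies. What reads that match several places did to the calls over their exons was not tested. The 3′ elements of Tfrc and Slc11a2 lay in no hotspot of either list.

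**Figure D2:**
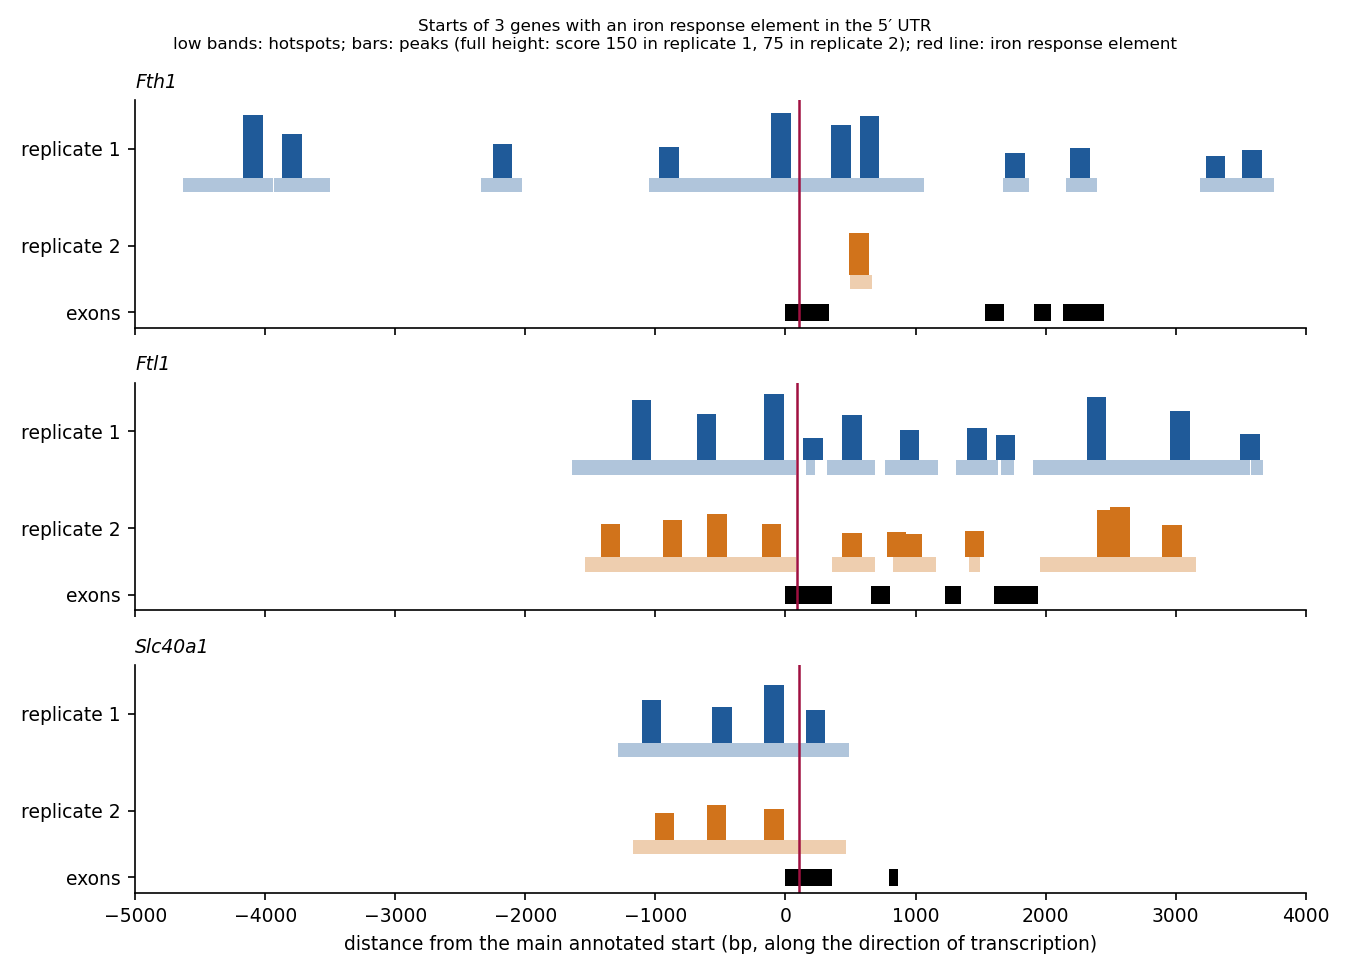
Peaks (bars), hotspots (low bands) and exons of the first-numbered transcript (black) around the main starts of Fth1, Ftl1 and Slc40a1, by distance in bp along the direction of transcription, with the iron response element as a red line. Bar height is the score within its own list, with a full height of 150 in replicate 1 and 75 in replicate 2. Fth1 has 1 peak of replicate 2 in the window, while Ftl1 and Slc40a1 have peaks and hotspots of both replicates upstream of the start.

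Fth1 (chr19:9980598-9985098, + strand) had 7 promoter peaks in replicate 1 and 1 in replicate 2. In replicate 1 the highest scored 144 over the main start, and others of 136 and 117 followed in the first intron, in a hotspot of 2114 bp at the ceiling. In replicate 2 neither the start nor the first exon lay in a peak or a hotspot, and the only promoter peak scored 46, 0.565 kb downstream in the first intron. Its hotspot was 169 bp wide with a −log10 q of 1.47. With the highest promoter hotspot taken per gene, this was the lowest value among the 9 genes in either list. The lists thus share a call in the first intron and differ at the start itself. The intron peak of replicate 1 that overlaps the peak of replicate 2 is shown with its matches in capitals. These are a metal response element, a hypoxia response core on each strand and an antioxidant response element. Of these, the peak of replicate 2 holds only the metal response element whole.
Fth1 first intron peak in both lists, score 136, chr19:9983216-9983365 (+ strand): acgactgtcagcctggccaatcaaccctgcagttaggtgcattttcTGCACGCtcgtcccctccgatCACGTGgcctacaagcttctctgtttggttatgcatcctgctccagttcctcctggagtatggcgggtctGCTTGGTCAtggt

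The difference between lists extended through the Fth1 window. It held 38 distal peaks in replicate 1, or 36.4 per 100 kb, a density reached by 2.09% of protein-coding genes. Replicate 2 had 3, or 2.87 per 100 kb, reached by 58.9%. Only 4 of the 38 overlapped a peak of replicate 2. The neighbouring genes Best1 and Rab3il1, with promoter scores of 110 and 135 in replicate 1, had no promoter peak in replicate 2 either. The 3 highest distal peaks of replicate 1 scored 140 (4.09 kb upstream), 135 (7.47 kb upstream) and 123 (40.8 kb downstream, in Rab3il1), and replicate 2 had neither a peak nor a hotspot there. The 3 distal peaks of replicate 2 scored 39, 31 and 31, lay 39.5 to 51.6 kb upstream, and overlapped peaks of 119, 83 and 93 in replicate 1. The mouse ferritin heavy gene is known to have an upstream enhancer that responds to oxidative stress, and the peak 4.09 kb upstream is printed for that reason, chosen after its values were seen. It holds 1 antioxidant response element and 2 RUNX sites.
Fth1 upstream peak, replicate 1 only, score 140, chr19:9978476-9978625 (+ strand): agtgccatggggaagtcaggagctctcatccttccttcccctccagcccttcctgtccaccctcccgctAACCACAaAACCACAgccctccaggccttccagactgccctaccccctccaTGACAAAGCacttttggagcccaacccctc
With no read counts, a site closed in replicate 2 and a site too thinly sequenced there to be called cannot be told apart.

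Ftl1 (chr7:45457944-45459884, − strand) differed from Fth1 in this respect. It had 7 promoter peaks in each list, of which the highest scored 146 in replicate 1, 0.087 kb upstream of the start, and 48 in replicate 2, 0.527 kb upstream. Its widest hotspots at the ceiling covered 1719 bp in replicate 1 and 1621 bp in replicate 2. Both of its start clusters had peaks in both lists. Distal peaks numbered 14 and 11, which is 13.7 and 10.8 per 100 kb. Ftl1 was thus the member with the fewest distal peaks in replicate 1, below the median of 15.6 per 100 kb, while only 8.62% of protein-coding genes were as dense in replicate 2. The Ftl1 window also held 16 and 5 peaks at starts of neighbouring genes, such as Bax, Gys1 and Nucb1.

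The highest distal peak near Ftl1 scored 141 in replicate 1, lay 2.39 kb downstream of the start, just past the end of the gene, and overlapped a peak of 52 in replicate 2. A second peak of replicate 2 beside it scored 55. The sequence of replicate 1 holds CACCC motifs and an antioxidant response element.
Ftl1 peak past the gene end, both lists, score 141, chr7:45457416-45457565 (- strand): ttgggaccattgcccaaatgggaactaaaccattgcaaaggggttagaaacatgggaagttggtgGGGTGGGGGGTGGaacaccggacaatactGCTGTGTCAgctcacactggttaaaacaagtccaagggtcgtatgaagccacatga
The next peak of replicate 1 scored 133, 1.11 kb upstream. Replicate 2 had a hotspot there but no overlapping peak. It was chosen after its values were seen, because 1 stretch matches AP-1, the antioxidant response element and NF-E2 (GCTGAGTCA), the erythroid factor that shares this site with them.
Ftl1 upstream peak, hotspot in both lists, score 133, chr7:45460916-45461065 (- strand): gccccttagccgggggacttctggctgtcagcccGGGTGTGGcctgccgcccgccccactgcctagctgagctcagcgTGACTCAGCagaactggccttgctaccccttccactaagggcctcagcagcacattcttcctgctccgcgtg
NF-E2 matches were rare: 3 of 258 distal member peaks of replicate 1 (1.16%, against 0.763% of all distal peaks) and 0 of 79 of replicate 2 (against 0.516%). Further upstream, inside Dhdh, a GATA-bearing peak scored 118 and 48, 15.6 kb from the start, and another in replicate 2 scored 48, 11.2 kb from the start, over a peak of 115.

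The sensors are Aco1, whose product is the cytosolic aconitase that becomes iron regulatory protein 1 when it loses its iron-sulphur cluster, and Ireb2, whose product is iron regulatory protein 2 and is degraded when iron is plentiful. Aco1 (chr4:40143081-40198338, + strand) had promoter peaks of 145, 141, 68 and 36 in replicate 1 and of 61, 53 and 36 in replicate 2. The score of 61 was the highest of the members in replicate 2, at the 89.6th percentile of genes with a promoter peak, and 145 was at the 85.5th in replicate 1. The 2 strong peaks flank the start, 0.13 kb on each side, in a hotspot at the ceiling that was 1638 bp wide in replicate 1 and 1587 bp in replicate 2. The 3 strongest peaks of the 2 lists overlap pairwise. The fourth peak of replicate 1 lay 47.9 kb downstream, near a noncoding start, and had no counterpart.

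Distal peaks of Aco1 numbered 24 and 13, and 10 of the 13 overlapped replicate 1. The highest scored 139, 101 kb downstream of the start, with 28 in replicate 2. Peaks of 131 (59.3 kb downstream) and 130 (90.2 kb downstream, in Ddx58) followed, with 39 and 38 in replicate 2. The nearest strong site upstream scored 124 in replicate 1, 8.15 kb from the start, overlapped a peak of 38 in replicate 2, and holds 1 GATA and 1 PU.1 site. PU.1, the product of the Spi1 gene that drives the MEL leukaemia, is known to oppose Gata1.
Aco1 upstream peak in both lists, score 124, chr4:40134856-40135005 (+ strand): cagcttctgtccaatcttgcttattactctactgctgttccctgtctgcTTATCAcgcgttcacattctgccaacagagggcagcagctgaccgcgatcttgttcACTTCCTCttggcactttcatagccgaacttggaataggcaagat
PU.1 sites were in 31 of 258 distal member peaks of replicate 1 (12%, against 9.17% of all distal peaks) and in 6 of 79 of replicate 2 (7.59% against 5.84%).

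Ireb2 (chr9:54863789-54912530, + strand) had promoter peaks of 136, 102 and 33 in replicate 1 and of 52 and 34 in replicate 2. The 2 strongest overlap between lists and lie 0.138 kb upstream and 0.342 kb downstream of the main start in replicate 1. The downstream starts had a peak of 33 in replicate 1 and none in replicate 2. Its surroundings were sparse in replicate 2, with 2 distal peaks against 22 in replicate 1. The stronger of the 2 scored 51, 7.86 kb upstream, and overlapped the highest of replicate 1, which scored 141. The other scored 12 and lay at the 3′ end of the gene, over a peak of 54. The next distal peaks of replicate 1 scored 116 (91.7 kb downstream, in Psma4) and 104 (17 kb downstream, in an intron), without a counterpart in replicate 2. Both sensors thus had peaks on either side of the main start in both lists, and in replicate 2 the distal count was 13 at Aco1 and 2 at Ireb2.

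Slc40a1, ferroportin, is the only known iron exporter of mammalian cells and lies at chr1:45908068-45926523 (− strand). Its promoter peaks scored 129, 94, 80 and 73 in replicate 1 and 38, 34 and 29 in replicate 2. The highest lay at the 39.2nd and 24.9th percentiles of genes with a promoter peak, and 38 was the lowest of the members in replicate 2. Its hotspots were at the ceiling in both lists, 1774 and 1641 bp wide. The 2 upstream start clusters of 3 had peaks in both lists, but the highest peak of each list was counted for both clusters. The upstream peak of the promoter (94 in replicate 1 and 29 in replicate 2) is shown for its motifs in replicate 1. There it holds an E-box with GATA, a second GATA site, a CACCC motif and a metal response element. The overlapping peak of replicate 2 holds only the second GATA site of these, though the hotspot of replicate 2 spans them all.
Slc40a1 upstream promoter peak in both lists, score 94, chr1:45926536-45926685 (- strand): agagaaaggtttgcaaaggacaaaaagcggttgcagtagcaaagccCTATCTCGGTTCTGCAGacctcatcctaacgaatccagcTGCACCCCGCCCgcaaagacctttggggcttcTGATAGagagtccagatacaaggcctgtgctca
GATA sites were in 10 of 42 member promoter peaks of replicate 1 (23.8%, against 16.5% of all promoter peaks) and in 6 of 34 of replicate 2 (17.6% against 16.1%). The E-box with GATA was in 2 of the 42 (4.76%, against 1.03%) and in 0 of the 34 (against 0.782%).

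Slc40a1 had 22 distal peaks in replicate 1 and 5 in replicate 2. The strongest sites of both lists lay beyond the end of the gene, in an intergenic stretch. In replicate 1 these scored 139 (56.8 kb downstream of the start), 138 (59.7 kb) and 132 (44.1 kb). In replicate 2 they scored 60 (44.1 kb), 52 (56.9 kb) and 45 (44.8 kb). The peaks of 132 and 60 had identical positions, and the one of 139 overlapped the one of 52, while 138 had no counterpart. The site with identical positions is shown with its GATA match.
Slc40a1 distal peak in both lists, score 132, chr1:45881456-45881605 (- strand): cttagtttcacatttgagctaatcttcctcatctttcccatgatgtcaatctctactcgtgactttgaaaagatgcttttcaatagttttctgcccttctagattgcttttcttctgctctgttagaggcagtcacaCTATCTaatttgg
GATA sites were in 51 of 258 distal member peaks of replicate 1 (19.8%, against 26.4% of all distal peaks) and in 27 of 79 of replicate 2 (34.2% against 28.2%). The share was thus below that of all distal peaks in replicate 1 and above it in replicate 2.

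**Figure D3:**
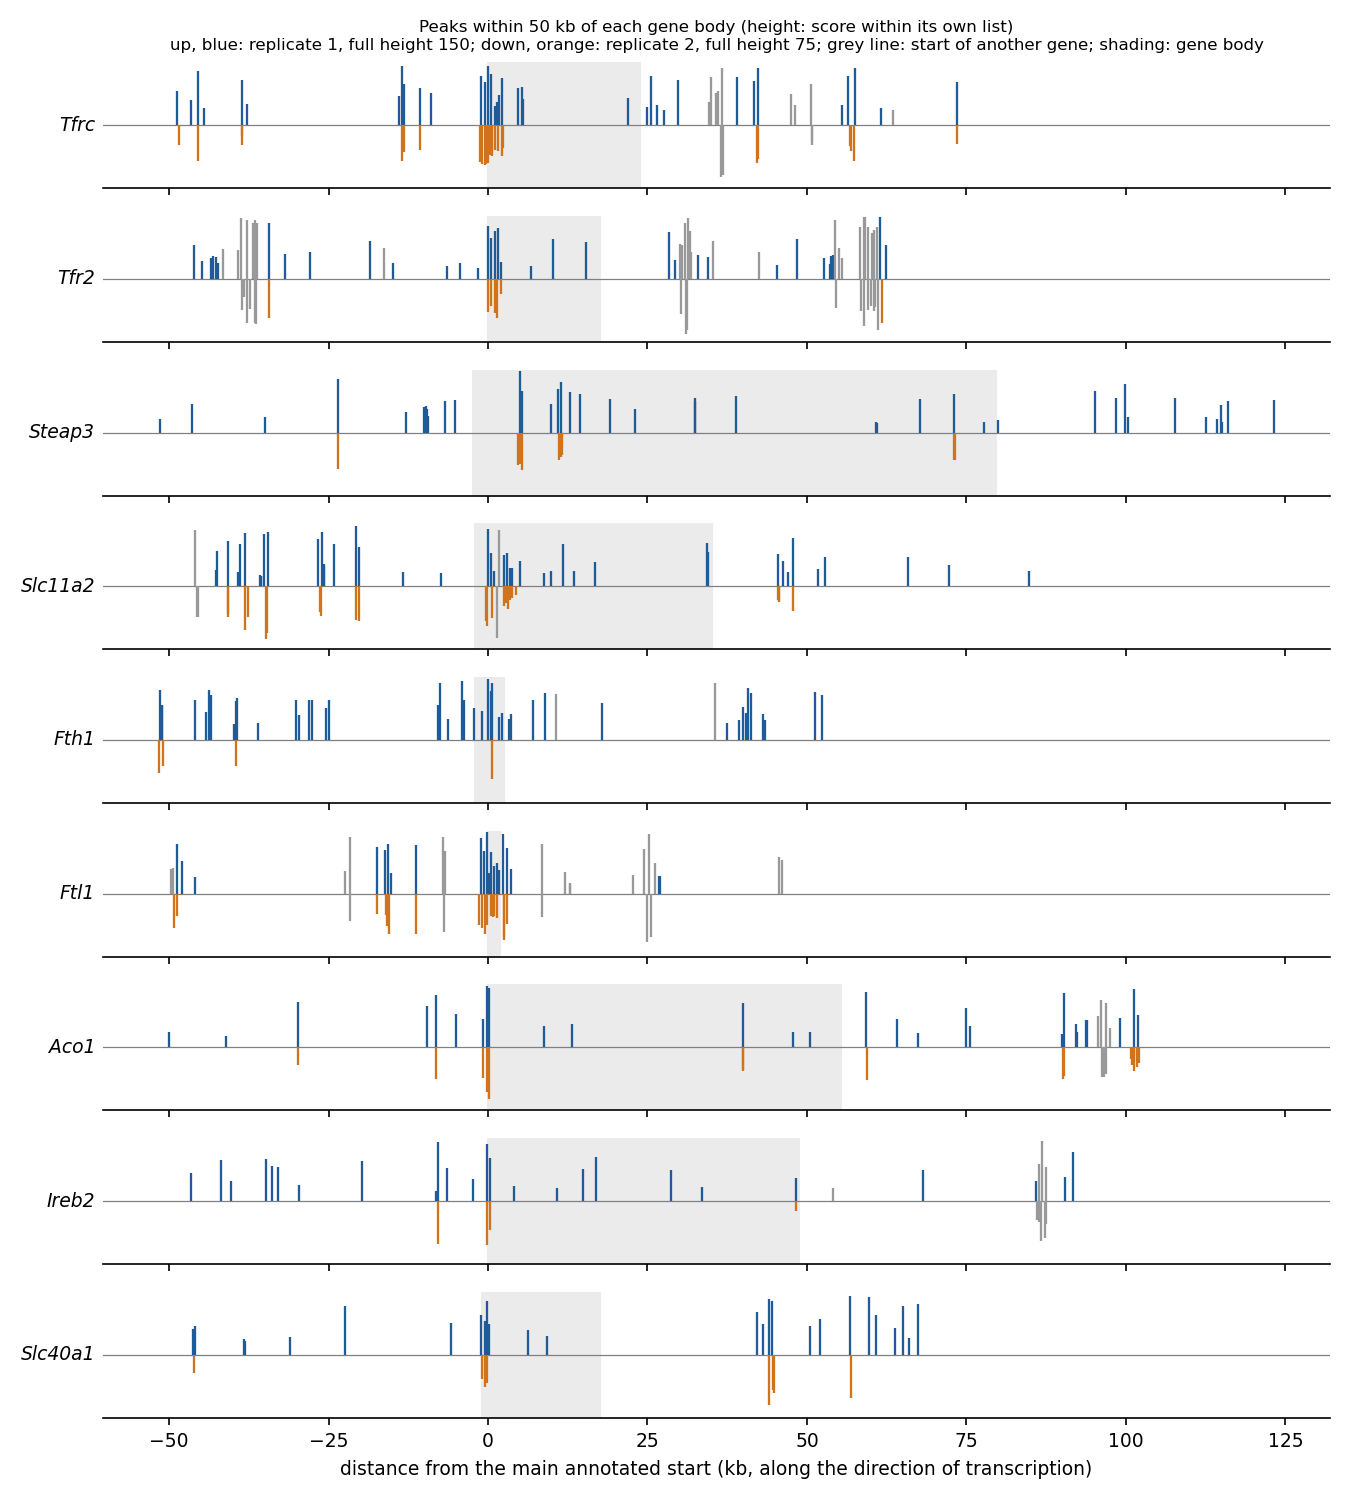
Peaks within 50 kb of each gene body by distance in kb from the main start (x axis), with replicate 1 above the line in blue and replicate 2 below it in orange. Line length is the score within its own list, grey lines are peaks at starts of other protein-coding genes, and shading is the gene body. Replicate 2 has 2 distal peaks at Tfr2 and at Ireb2 and 3 at Fth1, against 20 at Slc11a2 and 17 at Tfrc.

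The 9 genes have 35 start clusters, of which 20 had a peak within 1 kb in replicate 1 and 15 in replicate 2. The shares over all protein-coding genes were 44.3% and 27.1% of start clusters. All 15 of replicate 2 were among the 20, and another 15 had no peak in either list. Where clusters lie close together, 1 peak counts for more than 1 of them, as at Tfr2, Slc11a2, Fth1, Ftl1 and Slc40a1. The single promoter peak of Fth1 in replicate 2, for example, counts for 2 clusters. The 20 and 15 are therefore not counts of separately opened starts. Every member other than Fth1 and Ftl1 had at least 1 start cluster with no peak in either list. Of the main starts, 5 of 9 had a CpG ratio (observed over expected, within 500 bp) of at least 0.6, from 0.653 at Slc40a1 to 0.893 at Tfrc, and Steap3 had the lowest, 0.187, at its unopened first-numbered start. Over start clusters of all protein-coding genes, 23.9% had a ratio of at least 0.6, and the median was 0.288. That share counts every start cluster, so it is not a background for main starts alone. On the same measure, taken at the middle of each cluster, few of the 35 member clusters reached 0.6. They were those holding the main starts of Tfrc, Slc11a2, Fth1, Ireb2, Ftl1 and Slc40a1, from 0.629 (Slc40a1) to 0.886 (Tfrc).

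Distal peaks were present at all 9 genes in both lists, against 94.6% of protein-coding genes in replicate 1 and 84.9% in replicate 2. The median per gene was 29 in replicate 1, from 14 (Ftl1) to 41 (Slc11a2), against 20 over protein-coding genes. In replicate 2 it was 6, from 2 (Tfr2 and Ireb2) to 20 (Slc11a2), against 5. Per 100 kb of window, which allows for gene length, the medians were 20.9 against 15.6 in replicate 1 and 4.22 against 3.78 in replicate 2. The median of the members was thus above that of all genes in both lists, by little in replicate 2. Single genes fell on both sides of it: Ftl1 (13.7), Ireb2 (14.8) and Aco1 (15.5) were below 15.6 in replicate 1, and Ireb2 (1.34), Tfr2 (1.7), Fth1 (2.87) and Steap3 (3.3) were below 3.78 in replicate 2. The order of the genes also differed: Fth1 was the densest in replicate 1 with 36.4 and lay below the median of all genes in replicate 2 with 2.87, where Slc11a2 (14.6), Tfrc (13.7) and Ftl1 (10.8) led.

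**Figure D4:**
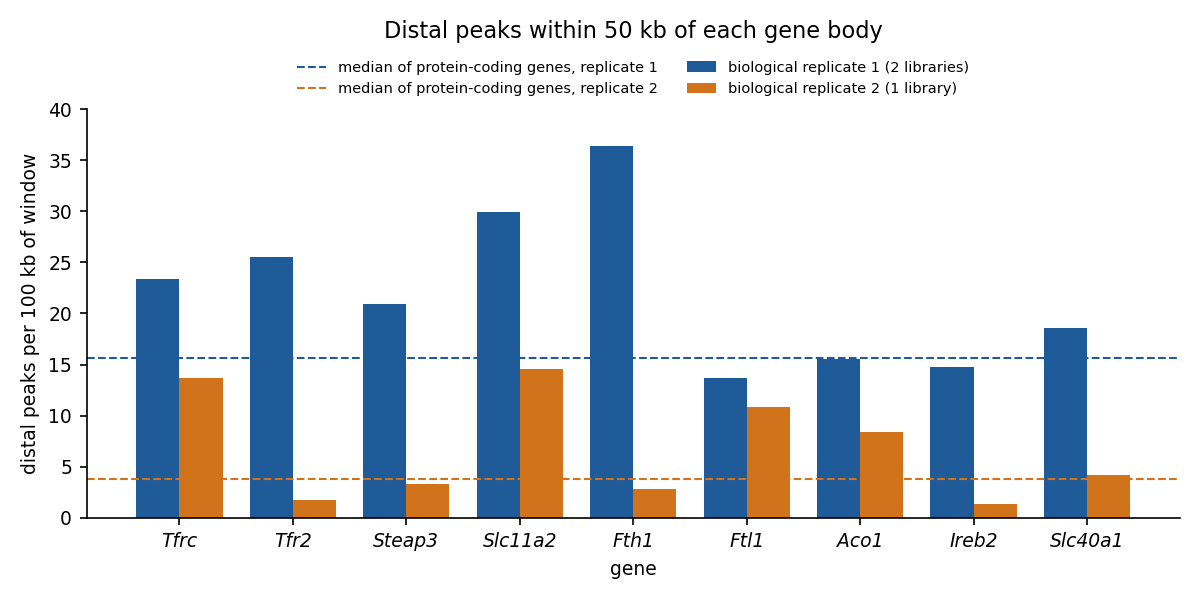
Distal peaks per 100 kb of window (gene body and 50 kb on each side) for each gene in biological replicate 1 (blue) and 2 (orange), with the medians over protein-coding genes as dashed lines. Fth1 is highest in replicate 1 (36.4) and below the median in replicate 2 (2.87), while Tfrc, Slc11a2 and Ftl1 exceed 10 in replicate 2.

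Of the 258 distal member peaks of replicate 1, 95 lay upstream between genes, 70 downstream in other genes, 41 in introns of the member, 28 downstream between genes and 19 upstream in other genes. In replicate 1 the 50 that overlapped a peak of replicate 2 had a median score of 114, and the 208 that did not had a median of 64. In replicate 2 the median was 32 both for the 57 distal member peaks that overlapped replicate 1 and for the 22 that did not. Over all member peaks, 102 of 150 peaks of replicate 2 overlapped a peak of replicate 1 (68%, 95% Wilson interval 60.2 to 74.9), against 70.6% of all peaks of that list. In the other direction it was 95 of 363 (26.2%, 21.9 to 30.9), against 23.6%. The intervals cover counting error only and treat neighbouring peaks as independent. The share of all peaks lay within these intervals in both directions. This is not a test of agreement with all peaks, because peaks of the same gene are not independent. The pooled shares also mix promoter and distal peaks, which differed in replicate 1. Of the member peaks of replicate 1, 61.9% at promoters and 19.4% at distal sites overlapped replicate 2, against 41.9% and 20.4% of all peaks of those classes. Of those of replicate 2, 76.5% at promoters and 72.2% at distal sites overlapped replicate 1, against 63.4% and 73.5%.

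The rest of iron metabolism was followed in a list of 38 other genes, of which 24 were open at the promoter in replicate 1 and 17 in replicate 2. This is beside the 63.6% and 49.0% of all protein-coding genes, so the list as a whole was not above that background in either replicate. The transferrin cycle had 6 of 9 genes with a peak in replicate 1 and 4 in replicate 2. Picalm (146 and 50) and Snx3 (146 and 48), which carry the receptor through endocytosis and recycling, had peaks in both lists, and the reductases Steap1 and Steap2, relatives of Steap3, had none in either. Of the chaperones and ferritin turnover genes, 4 of 5 had peaks in both lists. Ncoa4, the receptor that takes ferritin to the lysosome, scored 143 and 71, and Pcbp2, which delivers iron to ferritin, scored 149 and 62. Ftmt, mitochondrial ferritin, had none. Genes that regulate the sensors had peaks at 4 and 3 of 4, such as Cul1 (113 and 50), a ligase subunit, and Ciao1 (148 and 47), of iron-sulphur cluster assembly.

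Of the genes for systemic control, which act mainly in the liver, 2 of 7 were open in replicate 1 and 1 of 7 in replicate 2. The gene open in both lists was Erfe (103 and 39), the hormone erythroferrone that erythroblasts make to lower hepcidin, and Bmp2 and Bmp6 had none. Ferroxidases and reductases had 0 of 4 in both lists, Cp and Cybrd1 among them. Import outside transferrin had 4 and 3 of 4, led by the zinc and iron transporter Slc39a8 (136 and 56) and by Slc22a17 (130 and 43). Haem iron had 4 and 2 of 5, with Slc48a1, a haem transporter, at 144 and 38 and Hmox2, a haem oxygenase, at 135 and 37, while Hpx, which binds haem in plasma, had none. Over the roles, the count with a peak thus ran from 0 of 4 to 4 of 4.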

How the data were processed

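DNase-seq was read from 4 lists. Those of the whole series were taken as biological replicate 1 (2 libraries), since the deposited text records of both its libraries name the alignment behind them and that of replicate 2 does not. Each peak carries a score as deposited by the authors, whose meaning is not stated. Hotspots have a q value, deposited by the authors as its −log10. The build is mm10, per the labels. Aligner, peak caller and filters, and how reads with several matches were handled, are not given in the sources used. Without read counts the depth is unknown, and a peak has no interval of its own. With 1 list per replicate there is no standard deviation and no test, and counts stand beside those over all protein-coding genes. Rows off the chromosomes were left out (452 and 312 peaks), and positions listed more than once (58 and 31 rows) were counted once, with the higher score.

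Overlaps of at least 1 bp, promoters (1000 bp from any annotated start) and distal sites (over 1000 bp from every protein-coding start, within 50 kb of the gene body) were computed in Python 3.11.15 with numpy 2.4.6 and pysam 0.24.0, and tested on simulated data. Percentiles rank genes within a list. The main start is that of a gene's first-numbered transcript, and distances run from it to the middle of a peak. All 84 comparisons of list and chromosome lay within the lengths of the GRCm38 reference, from which sequences were read, 5′ to 3′ on the strand of the gene, with matches on either strand in capitals. Every member is named, with its promoter peaks and its 3 highest distal peaks per list. Pathway genes named are the 2 with the highest promoter score in replicate 2 per role and, alphabetically, up to 2 lacking a promoter peak. Members, lists and motifs were chosen with earlier results of these data known. Alternatives changed the promoter window, the distal window, the peaks kept, the transcripts used and the overlap required.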

Additional observations from a re-analysis of the deposited data

How the results depend on the processing

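All 9 genes kept a promoter peak in both lists with a promoter of 500 or 2000 bp, with the highest-scoring 50% of peaks, with protein-coding transcripts only and, in replicate 1, with as many peaks as replicate 2. Over protein-coding genes, shares in replicate 1 were 59.3% (500 bp), 69.9% (2000 bp), 57.1% (highest-scoring 50%) and 54.6% (as many peaks as replicate 2). In replicate 2 they were 46.4% (500 bp), 52.4% (2000 bp) and 44.2% (highest-scoring 50%). No such share is given here for protein-coding transcripts only. With hotspots of −log10 q of at least 10, 7 of 9 were left in replicate 2, without Steap3 and Fth1. The share over protein-coding genes at that limit is not given here. Distal counts moved with the window and the peaks kept: the median in replicate 1 was 12 (20 kb), 54 (100 kb), 15 (highest-scoring 50%) and 10 (as many peaks as replicate 2), against 10, 38, 10 and 6 over protein-coding genes. In replicate 2 it was 15 at 100 kb, against 10. The share of member peaks of replicate 2 that met replicate 1 was 46% when 50% of both peaks had to overlap and 98% against hotspots, and in the other direction 18.5% and 34.2%. Of 39 alternatives, 30 were counted as near the value given, and many of these repeat the promoter count of the 9 genes. They also include the 7 of 9 promoter hotspots in replicate 2. With a promoter of 2000 bp, pathway genes with a peak in replicate 1 went from 24 to 30 of 38. The share of protein-coding genes went from 63.6% to 69.9%. With the highest-scoring 50% of peaks, the distal median in replicate 2 went from 6 to 4. No paired analysis was possible because there is 1 group and no comparison between groups. Depth is unknown, so what replicate 2 missed for want of reads cannot be told.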

Other observations

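At Ftl1, hotspots covered introns more than exons of the first-numbered transcript: 95.2% of intron bases and 48.1% of exon bases in replicate 1, and 73.2% and 11.8% in replicate 2. The first intron was covered whole in both lists, and the edge of the hotspot of replicate 2 over it fell on the base next to exon 1. Fth1 had 60.2% of intron and 62.8% of exon bases covered in replicate 1, and 11.1% and 0% in replicate 2. Both genes are known to have many processed copies in the mouse genome, and the part of reads that match several places was not tested.

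Of 98 member hotspots of replicate 2, 10 shared a start or an end base with a hotspot of replicate 1 (10.2%, against 8.22% over the lists). They numbered 3 at Ftl1, where hotspots in both lists began at base 45459197 and at base 45459805 of chr7, 2 each at Aco1, Slc11a2 and Tfr2, and 1 at Tfrc.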
